A study of Homo sapiens with 4 samples.

Results

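Serpins and SPINKs are families of protease inhibitors, and 40 of their genes, 31 serpins and 9 SPINKs, were followed among the 18132 genes measured in this series. The members were all genes whose platform symbol is SERPIN with a clade letter from A to I and a number, or SPINK with a number, on probe sets that carry a single symbol. Where a gene has several such sets, the brightest on average was used, so the probe sets were chosen by their measured levels and the genes by name. The fold changes played no part in that rule, but the family itself was chosen with earlier results of these data known, SPINK1 among them. The cells are U87MG, an established human glioma line. One group was transfected with PC-490, a vector that overexpresses the microRNA miR-490, and the other with its control vector PCDNA. RNA was taken 48 h after transfection, and 100 ng of total RNA was labelled for each Affymetrix PrimeView array, with 2 arrays per group. All values are deposited log2 expression levels.

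Most serpins inhibit serine proteases by offering a flexible loop as bait: the protease cuts it and is trapped in a covalent complex with the distorted serpin. A few members have lost this activity and carry hormones or chaperone other proteins. SPINK proteins hold a compact Kazal domain that plugs the active site of trypsin-like proteases reversibly. In brain tumours, serpins that act on plasminogen activators and thrombin are known for their part in matrix turnover at the tumour edge.

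The agent of the study, miR-490, gives rise to 2 mature strands, shown 5′ to 3′ with the seed, bases 2 to 8, in capitals because the seed determines which messenger RNAs a microRNA can pair with. They are RefSeq sequences on the plus strand of GRCh38.p14, the 5p strand at chr7:136903205-136903224 and the 3p strand at chr7:136903242-136903263.
hsa-miR-490-5p: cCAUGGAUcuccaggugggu
hsa-miR-490-3p: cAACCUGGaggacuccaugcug
The 2 seeds differ from each other. Levels of miR-490 itself were not analysed here, and neither were transcript sequences in which to look for pairing sites.

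The array medians lay between 5.15 and 5.17, so levels are given relative to a median of 5.16. The U87MG label was set against markers: VIM, CD44, SOX9, EGFR and GFAP, 5 of 9 glial and glioma markers, had means above the array median, whereas OLIG2, S100B, SOX2 and NES did not. None of 7 epithelial markers, 1 of 6 leukocyte markers, 1 of 4 endothelial markers and 2 of 6 hepatocyte markers did. Those above it were CORO1A at 5.37 to 5.52, KDR at 6.81 to 7.11, APOA1 at 5.61 to 5.78 and APOH at 6.56 to 6.79. PTPRC, at 2.43 to 2.62, and ALB, at 2.42 to 2.57, were the dimmest of the leukocyte and hepatocyte lists. The 6 leukocyte markers had 3 higher and 3 lower means: PTPRC, CD3E and CD14 had log2 fold changes of -0.16, -0.29 and -0.135, and CD53, LAPTM5 and CORO1A 0.245, 0.195 and 0.01. Of these, PTPRC and CD3E, both below the array median, had an unadjusted p under 0.05 (0.0393 and 0.0167, limma). Of all genes at or below the array median, 9.35 percent were below that p. The summed level of the leukocyte list was 21.89 to 22.13 in controls and 21.85 to 21.90 with miR-490, and that of the hepatocyte list 25.65 to 25.72 and 25.59 to 26.21. The part of other cells in the results below was not tested, and in a bulk sample fewer cells of a type and less RNA per cell cannot be told apart. The labels do not say whether replicates came from separate cultures, and each p-value rests on the spread between arrays, which may be technical.

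SPINK1, the secreted trypsin inhibitor, was at 1.39 times the control level with miR-490, a log2 fold change of 0.47. By the 1 probe set used per gene, the serpins stayed within a log2 difference of -0.23 to 0.24. A dimmer set of SERPINB9, not used in that range, was at 0.39. No serpin and no SPINK passed the threshold with limma and Benjamini-Hochberg adjustment over all genes (0 of 31 and 0 of 9), where the share over all genes was 0 percent. The smallest adjusted p among the members was 0.786. At an unadjusted p under 0.05, limma gave 2 serpins and 3 SPINKs, all 5 with higher means under miR-490, where 6.19 percent of all genes were below that p and 3.31 percent were below it and higher. For the serpins the share was 6.45 percent, near that of all genes. SPINK1 was known from earlier results when the family was chosen, so the SPINK count is a description. The SPINK share rests on few genes and turned on single arrays: of the 9, only SPINK1 remained below that p without control replicate 1 or without miR-490 replicate 2, and without miR-490 replicate 1 it was joined by SPINK6 with a lower mean. Without miR-490 replicate 1 the single serpin was SERPINA12, at a log2 fold change of 0.25, and without miR-490 replicate 2 the same gene was at -0.21. Leaving out control replicate 1 gave 3 serpins, SERPINI2 as higher and SERPINA6 and SERPINB12 as lower, and leaving out control replicate 2 gave 3, SERPINE3, SERPINI2 and SERPINB7, all higher. An exact permutation test (two-sided) on groups of 2 cannot go below a p of 0.333 for any gene.

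The serpins had 16 higher means, 13 lower means and 2 without a difference. Their log2 fold changes had a median of 0.01, that of all genes being 0.005. The SPINKs had 6 higher and 3 lower means, with a median of 0.07. The 2 groups of arrays did not overlap in 10 serpins, 5 in each direction, and in 3 SPINKs, all higher, whereas over all genes they did not overlap in 32.6 percent, 16.5 percent being higher and 16.1 percent lower. The 8 serpins above the array median had 2 higher and 6 lower means with a median of -0.075, and 4 of them, SERPINE2, SERPINA1, SERPINA6 and SERPINI1, had both miR-490 arrays below both controls. The 23 at or below it had 14 higher, 7 lower and 2 equal means with a median of 0.02.

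**Figure D1:**
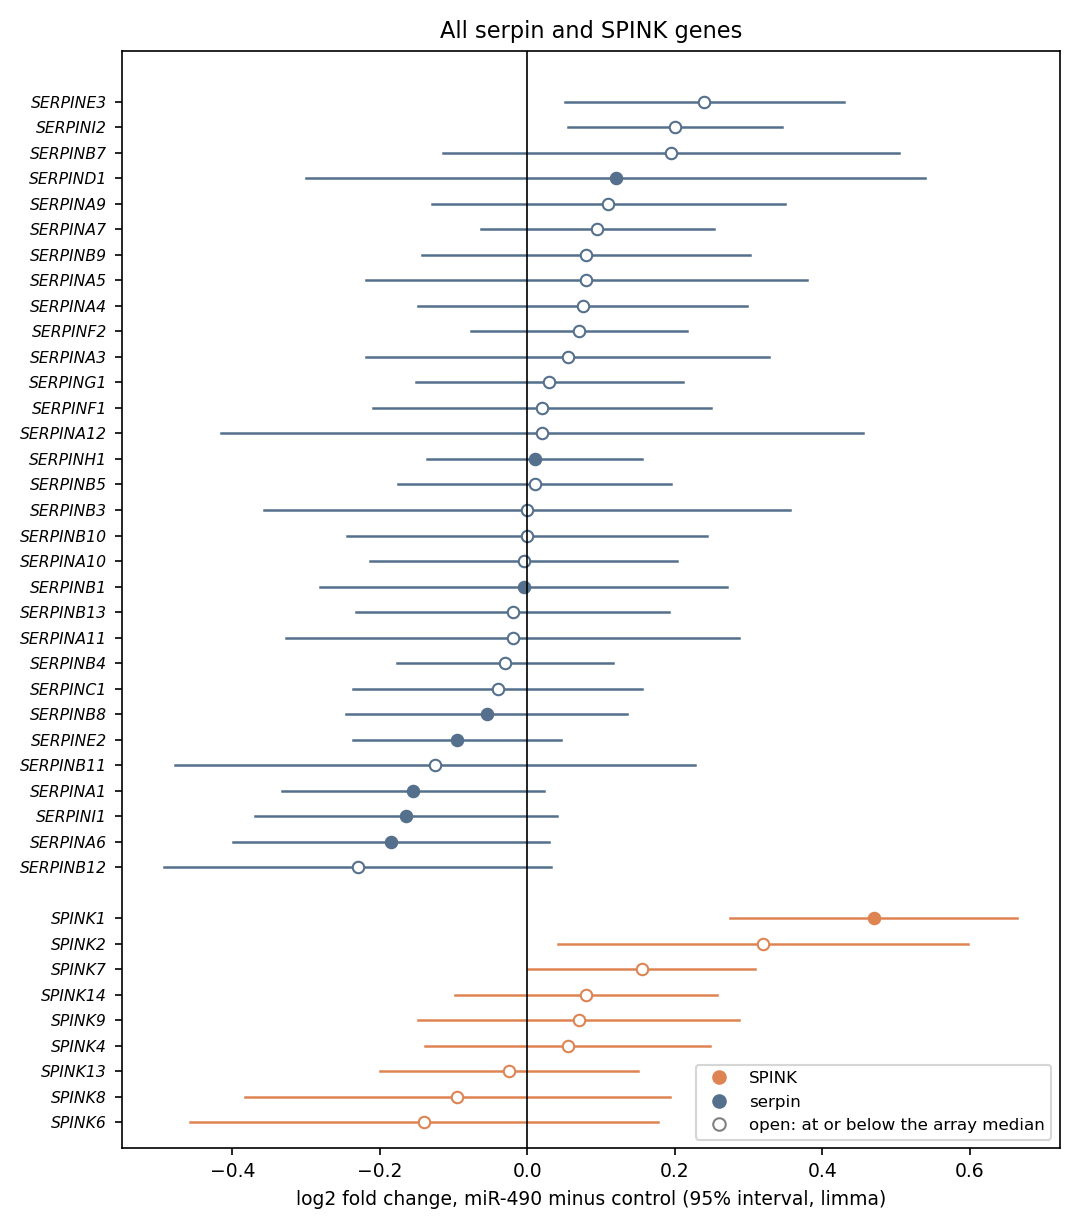
Log2 fold change of each of the 40 members, miR-490 minus control, with its 95% limma interval. Filled points are genes whose mean level is above the array median, and only SPINK1, SPINK2, SPINK7, SERPINE3 and SERPINI2 have intervals on one side of 0.

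Most members were dim. Only 8 of 31 serpins and 1 of 9 SPINKs, 22.5 percent of the members, had a mean above the array median, against 56.3 percent of all genes tested. The members nearest that line were SERPIND1 at 5.63 above it and SERPINF2 at 4.68 below it. Relative to the array median, the median serpin lay at -1.92 to -1.87 log2 units in the 4 arrays and the median SPINK at -2.29 to -2.04. Dim genes vary more between replicates: the median difference between replicate arrays was 0.13 for the 31 members at or below the array median and 0.095 for the 9 above it, while for all genes it was 0.135 and 0.07. Of the members at or below the median, 4 of 31 had an unadjusted p under 0.05 (12.9 percent, limma), beside 9.35 percent of all genes at such levels.

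Among the SPINKs, SPINK1 was the single member above the array median. It is made in large amounts by the exocrine pancreas, where it holds prematurely active trypsin in check, and is also secreted by many tumours. Its control arrays read 6.16 and 6.31 and its miR-490 arrays 6.71 and 6.70, which is 1.31 log2 units above the array median on average. The higher control array was 0.39 below the lower miR-490 array, a gap larger than the spread within either group. Its log2 fold change was 0.47 (95% interval 0.28 to 0.66; limma adjusted p = 0.786). No gene above the array median had a larger positive difference, and the 6 genes that did were all dim, with mean levels up to 4.56. Lower means reached a log2 fold change of -0.58 among genes above the array median. Over all genes, 21 had a smaller p than SPINK1 (limma). Since SPINK1 was known from earlier results of these data when the family was chosen, this order is a description. Without 1 array its log2 fold change was between 0.395 and 0.545. SPINK1 has 1 probe set here, so no other set could be compared.

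The 8 other SPINKs had means of -2.84 to -1.18 log2 units relative to the array median. SPINK2, an acrosin inhibitor of the sperm lineage, read 2.49 and 2.73 in controls and 2.87 and 2.99 with miR-490, a log2 fold change of 0.32 (95% interval 0.042 to 0.60; limma adjusted p = 0.786). The groups did not overlap, yet the control arrays were 0.24 apart and the gap between the groups was 0.14. SPINK7, an inhibitor of the oesophageal lining, read 2.28 and 2.35 against 2.47 in both miR-490 arrays, with an unadjusted p of 0.049 (limma). Its second probe set read 2.29 and 2.33 in controls and 2.28 and 2.47 with miR-490, so there the groups overlapped. SPINK6, which inhibits skin kallikreins, had a log2 fold change of -0.14 that came from 1 array: it read 3.58 and 3.65 in controls, 3.63 in miR-490 replicate 1 and 3.32 in replicate 2. The groups overlapped in SPINK4, SPINK6, SPINK8, SPINK9, SPINK13 and SPINK14, whose log2 fold changes ran from -0.14 to 0.08.

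**Figure D2:**
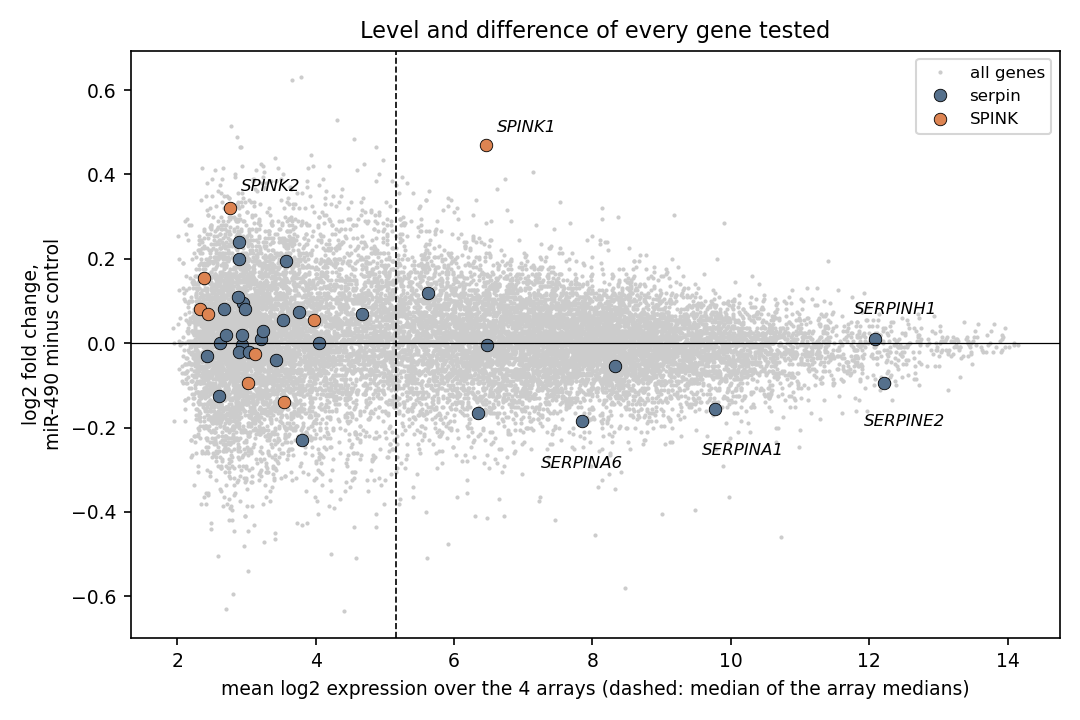
Mean log2 level over the 4 arrays (horizontal) and log2 fold change (vertical) of the 18132 genes tested in grey, with serpins and SPINKs in colour. SPINK1, at 0.47, is the highest point to the right of the dashed array median, while the remaining SPINKs lie to its left, where the grey cloud is widest.

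In the RefSeq gene order of GRCh38.p14, 6 of the 9 SPINKs share chromosome 5 with SPINK1 as the first of the row, followed by SPINK14, SPINK6, SPINK13, SPINK7 and SPINK9. The 5 others were dim in every array, with means from 2.33 to 3.54 and log2 fold changes of -0.14 to 0.155. Of the measured neighbours, JAKMIP2, just outside the row, had a log2 fold change of 0.095 and SCGB3A2, the next inside it, 0.165 (limma adjusted p = 0.85 and 0.786). C5orf46, the measured gene after SCGB3A2, was at -0.04 with overlapping groups, and FBXO38, past the far end, at 0.075. In JAKMIP2, SCGB3A2 and FBXO38, as in SPINK1, the miR-490 arrays lay above the controls, as they did in 16.5 percent of all genes. In SPINK1 and SPINK7, alone of the 6 SPINKs, both miR-490 arrays lay above both controls, so the 250 bases before their RefSeq start are printed here, 5′ to 3′ on the gene's strand in GRCh38.p14: SPINK1 at chr5:147831672-147831921, minus strand, and SPINK7 at chr5:148312173-148312422, plus strand. Capitals mark matches to TTCNNNGAA, the form of a STAT motif, or to TATAAA, the TATA box.
SPINK1: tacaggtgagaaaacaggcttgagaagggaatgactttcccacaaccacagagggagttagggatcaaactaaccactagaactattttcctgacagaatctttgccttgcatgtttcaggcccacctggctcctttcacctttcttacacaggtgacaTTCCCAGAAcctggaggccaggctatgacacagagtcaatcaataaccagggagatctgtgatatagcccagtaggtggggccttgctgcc
SPINK7: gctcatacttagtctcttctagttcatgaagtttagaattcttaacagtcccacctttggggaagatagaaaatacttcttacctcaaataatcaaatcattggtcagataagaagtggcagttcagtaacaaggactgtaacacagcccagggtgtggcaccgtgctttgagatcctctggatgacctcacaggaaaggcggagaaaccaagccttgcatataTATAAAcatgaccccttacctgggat
The SPINK1 window holds TTCCCAGAA 91 to 83 bases before the start and no CpG, and the SPINK7 window holds TATAAA 26 to 21 bases before it and 2 CpGs. With both strands read, TTCNNNGAA occurred in 6.6 percent of the 35116 windows of the RefSeq table and TATAAA in 10.7 percent. Among the 9 SPINKs, 3 held TTCNNNGAA, including SPINK14, which was dim and whose groups overlapped, and 2 held TATAAA. Windows were found for 34 of the 40 members, 11 of them with more than 1 window. A member was counted as holding a motif if any of its windows held it. Counts of members therefore cannot be set beside the shares of single windows. TTCNNNGAA was found in 4 of the 9 matched members above the array median and in 7 of the 25 at or below it. The CpG count in the richest window per gene had a median of 9 above the array median and 3 at or below it, while the median over all single windows was 11. Among the members above the array median it ran from 0 in SPINK1 to 28 in SERPINE2.

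Among the serpins of clades E and I, which include inhibitors of plasminogen activators, SERPINE2 and SERPINI1 were above the array median. SERPINE2, protease nexin-1, inhibits thrombin, urokinase and plasmin at cell surfaces. It read 12.27 and 12.26 in controls and 12.17 in both miR-490 arrays, 7.06 log2 units above the array median. The miR-490 arrays were thus 0.936 of the control level, and the replicates differed by 0.01 or less (log2 fold change -0.095, 95% interval -0.24 to 0.046; limma adjusted p = 0.818). All 6 SERPINE2 probe sets had lower means with miR-490, from -0.155 to -0.095, and in each the groups did not overlap, by as little as 10.97 against 10.96 in 1 of them. These sets read 1 gene's transcripts on the same arrays and are not separate evidence. SERPINI1, neuroserpin, the inhibitor of tissue plasminogen activator in the nervous system, read 6.47 and 6.38 in controls and 6.33 and 6.19 with miR-490 (log2 fold change -0.165, 95% interval -0.37 to 0.040; limma adjusted p = 0.786). Its groups were 0.05 apart, less than the spread within either.

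The other 2 measured members of these clades were dim and lay on the opposite side. SERPINE3 read 2.73 and 2.83 in controls and 2.97 and 3.07 with miR-490 (log2 fold change 0.24, 95% interval 0.051 to 0.43; limma adjusted p = 0.786). SERPINI2, a serpin best known from the pancreas, read 2.79 in both controls and 3.01 and 2.97 with miR-490 (0.20, 95% interval 0.055 to 0.35; limma adjusted p = 0.786). In both genes the groups did not overlap, at mean levels of -2.26 and -2.27 relative to the array median. Over all genes the groups did not overlap in 32.6 percent, and in 30.6 percent of those at or below the array median. Of the latter, 9.35 percent had an unadjusted p under 0.05 (limma).

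The secreted serpins of clades A, C, D, F and G act largely in blood and come mainly from the liver. Of 15 measured, 3 were above the array median: SERPINA1, SERPINA6 and SERPIND1. SERPINA1, alpha-antitrypsin, the main inhibitor of neutrophil elastase and an acute-phase protein, read 9.82 and 9.89 in controls and 9.75 and 9.65 with miR-490, 0.898 of the control level (log2 fold change -0.155, 95% interval -0.33 to 0.023; limma adjusted p = 0.786). Each of its 3 bright probe sets had both miR-490 arrays below both controls, with log2 fold changes of -0.225 to -0.155, and its dim set gave -0.035 with overlapping groups. As with SERPINE2, sets of 1 gene on the same arrays are not separate evidence. SERPINA6, corticosteroid-binding globulin, carries cortisol and does not inhibit proteases. It read 7.86 and 8.03 in controls and 7.73 and 7.79 with miR-490, 0.880 of the control level (95% interval of the log2 fold change -0.40 to 0.029; limma adjusted p = 0.786). The gap between the groups, 7.86 to 7.79, was smaller than the spread of the controls. SERPIND1, heparin cofactor II, an inhibitor of thrombin, read 5.36 and 5.78 in controls and 5.62 and 5.76 with miR-490, so the control arrays enclosed the others (log2 fold change 0.12, 95% interval -0.30 to 0.54; limma adjusted p = 0.939). Its other probe set had the opposite sign at -0.095.

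SERPINA1 and SERPINA6 follow each other among the 9 measured clade A serpins on chromosome 14. They were the only 2 of the 9 above the array median. Their probe sets were also the only 2 of the 9 used whose groups did not overlap, 22.2 percent beside 32.6 percent of all genes, and dimmer second sets of SERPINA10 and SERPINA3 had both miR-490 arrays below both controls too. The 7 others, by the sets used, had log2 fold changes between -0.02 and 0.11.

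The 12 dim secreted serpins had log2 fold changes from -0.04 to 0.11, 9 of them higher. They include SERPINA3, antichymotrypsin, at 3.38 to 3.63, SERPINC1, antithrombin, at 3.37 to 3.52, SERPINF1, the antiangiogenic factor PEDF, at 2.61 to 2.78, and SERPING1, the complement inhibitor, at 3.17 to 3.29. In 2 of the 12, SERPINA7, the thyroxine carrier, and SERPINF2, the main plasmin inhibitor of blood, both miR-490 arrays lay above both controls, by 0.05 and 0.04. That is 16.7 percent of the 12, beside 16.5 percent of all genes.

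**Figure D3:**
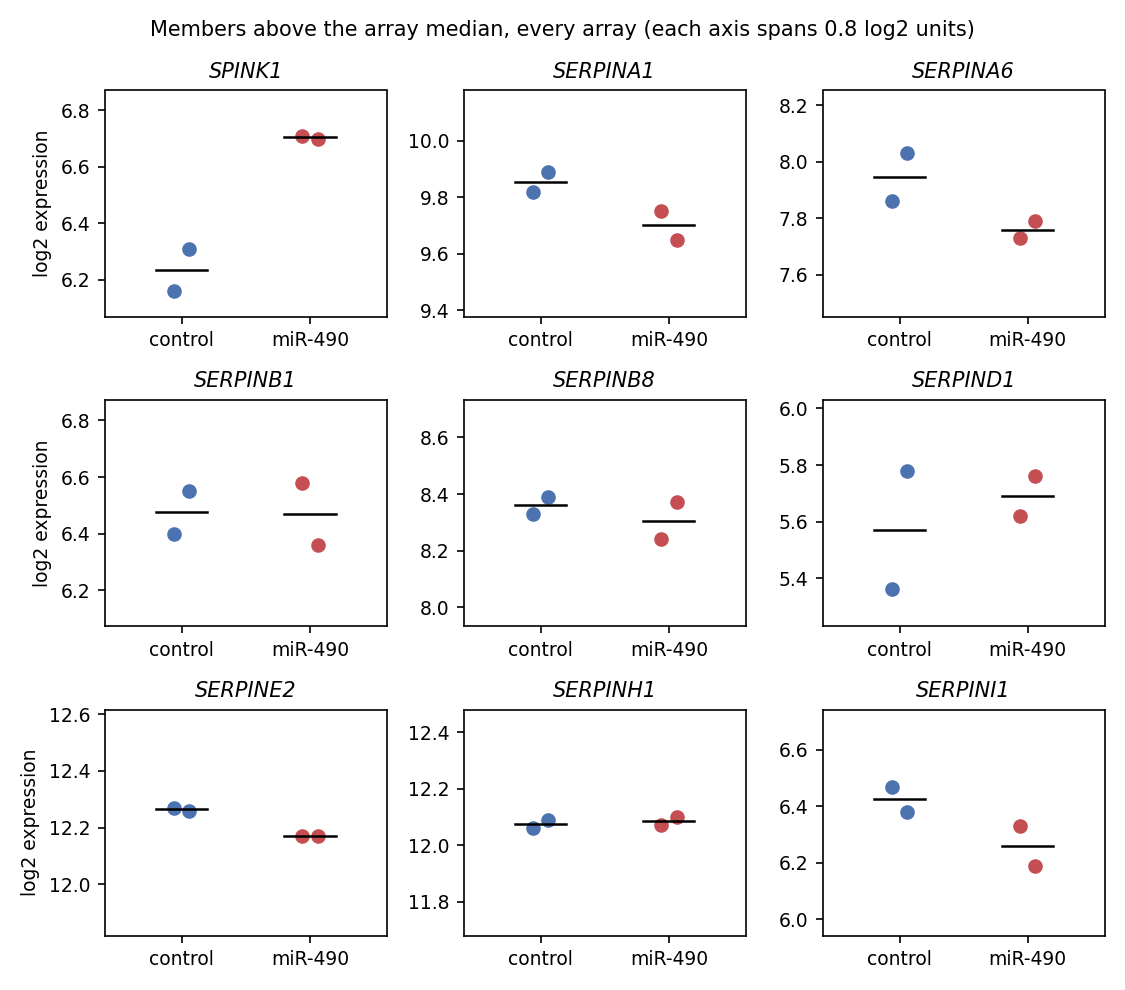
Log2 level in each array for the 9 members above the array median. Points are arrays, bars are group means, and each axis spans 0.8 log2 units. Controls and miR-490 arrays are apart in SPINK1, SERPINA1, SERPINA6, SERPINE2 and SERPINI1 and overlap in SERPINB1, SERPINB8, SERPIND1 and SERPINH1.

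Clade B serpins lack a classical signal peptide and mostly guard the cell interior against leaked proteases. SERPINB8, an inhibitor of furin, and SERPINB1, an inhibitor of neutrophil elastase and cathepsin G, were the 2 of 11 above the array median. SERPINB8 read 8.33 and 8.39 in controls and 8.24 and 8.37 with miR-490 (log2 fold change -0.055, 95% interval -0.25 to 0.14; limma adjusted p = 0.939). Its 4 probe sets had 2 signs in each direction, from -0.055 to 0.085. SERPINB1 read 6.40 and 6.55 against 6.58 and 6.36, and the difference was -0.005 (95% interval -0.28 to 0.27; limma adjusted p = 0.995). Neither gene separated the groups.

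The log2 fold changes of the 9 dim clade B genes ran from -0.23 to 0.195 around a median of 0. SERPINB12, an inhibitor of trypsin-like proteases, marked the lower end: it read 3.80 and 4.04 in controls and 3.66 and 3.72 with miR-490 (limma adjusted p = 0.786). SERPINB7, megsin, marked the upper end at 3.32 and 3.62 against 3.63 and 3.70. SERPINB9, the granzyme B inhibitor, showed how far probe sets of a dim gene can part: its brightest set had a log2 fold change of 0.08, while another read 2.56 and 2.52 in controls and 3.0 and 2.86 with miR-490, a difference of 0.39. The 2 remaining sets of SERPINB9 gave -0.05 and 0.03. SERPINB3, SERPINB4, SERPINB5, SERPINB10, SERPINB11 and SERPINB13 had overlapping groups.

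SERPINH1, also called HSP47, is a chaperone of procollagen in the endoplasmic reticulum and does not inhibit proteases. It read 12.06 and 12.09 in controls and 12.07 and 12.10 with miR-490, 6.92 log2 units above the array median. The log2 fold change was 0.01, and its 95% interval of -0.14 to 0.16 bounds the difference on either side (limma adjusted p = 0.991). All 3 of its probe sets gave 0.01 to 0.02, and their groups overlapped.

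**Figure D4:**
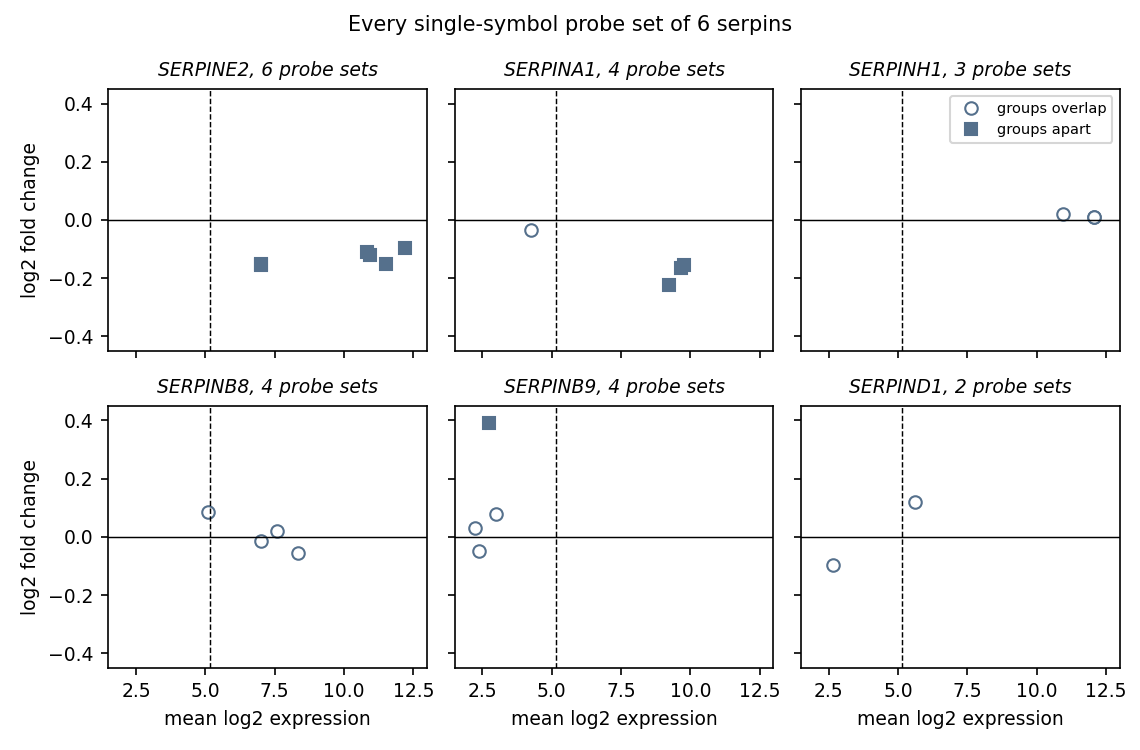
Mean log2 level (horizontal) and log2 fold change (vertical) of each single-symbol probe set of 6 serpins. Filled squares are sets whose groups do not overlap. The sets of SERPINE2 and the 3 bright sets of SERPINA1 lie below 0, those of SERPINH1 lie at 0.01 to 0.02, and a single dim set of SERPINB9 reaches 0.39.

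Across the 16 members with more than 1 probe set, the sets had 1 sign in 7 genes and not in the other 9. Of the 73 member sets, 6 had an unadjusted p under 0.05 when every set was fitted (limma), where 5.19 percent of all 44988 sets did: those of SPINK1, SPINK2, SERPINE3 and SERPINI2, the SERPINB9 set at 0.39 and a dim SERPINA10 set at -0.19. Probe sets of SERPINB3 and SERPINB4 can read each other's transcripts, so the values of this pair are uncertain.

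Which serpins had an unadjusted p under 0.05 depended on how the variance was modelled. When the variance prior was allowed to follow intensity, SERPINE2, SERPINA1 and SERPINA6 had unadjusted p of 0.0127, 0.021 and 0.0402, all with lower means (limma, adjusted p = 0.798 for each), and SERPINE3 was the single serpin with a higher mean. The count of serpins was then 1 higher and 3 lower, against 2 higher and 0 lower in the reported fit, and 6.04 percent of all genes were below that p. With a robust prior added, 0 serpins were higher and the same 3 were lower.

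The proteases and partner proteins of these inhibitors were read from lists chosen with earlier results of these data known. In each list 0 genes passed the adjusted threshold (limma). Of 16 genes of plasminogen activation, 7 had higher and 9 lower means, the median being -0.0275 on the log2 scale, and 1 had an unadjusted p under 0.05 (limma), 6.25 percent beside 6.19 percent of all genes. This was PLAT, tissue plasminogen activator, which read 8.06 and 8.05 in controls and 7.80 and 7.89 with miR-490, 0.865 of the control level (limma adjusted p = 0.786). PLAUR, the urokinase receptor, read 10.28 and 10.23 against 10.08 and 10.17, and F12, a contact-phase protease, 5.52 and 5.56 against 5.71 and 5.62.

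Of 14 coagulation genes, 5 were higher and 9 lower, and 7 were at or below the array median. Of these 7, F7 and F9 had an unadjusted p under 0.05, both as higher (limma). Of all genes at or below the array median, 9.35 percent were below that p, and 5.49 percent were below it and higher. The median of the list was -0.04. F9, a clotting factor lacking in haemophilia B, read 3.45 and 3.44 in controls and 3.83 and 3.80 with miR-490. Of the genes above the array median, PROS1, the anticoagulant protein S, read 9.73 and 9.71 in controls and 9.64 and 9.56 with miR-490, a log2 fold change of -0.12. F3, tissue factor, read 11.66 and 11.67 against 11.62 and 11.58, and F2, prothrombin, 5.69 and 5.83 against 5.82 and 5.86, so that its groups overlapped.

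Of 16 trypsin-like, kallikrein and elastase genes, 3 were above the array median, and the median log2 fold change was 0.0025. PRSS1, cationic trypsinogen and the main partner of SPINK1, read 5.87 and 5.80 in controls and 5.99 and 5.77 with miR-490, a difference of 0.045. PRSS3, another trypsinogen, read 6.43 and 6.49 against 6.47 and 6.42, and TMPRSS15, enteropeptidase, 9.61 and 9.53 against 9.57 in both miR-490 arrays. Their groups overlapped, and PRSS1 and PRSS3 have close paralogs that their probes may read too. In the dim remainder ELANE and TMPRSS2 were lower and CTSG higher at an unadjusted p under 0.05 (limma), 3 of 13, beside the 9.35 percent of all genes at such levels.

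Of 11 lysosomal and granule proteases 7 were higher and 4 lower, with a median of 0.115. One, the dim granzyme GZMH, had an unadjusted p under 0.05 (limma), 9.09 percent beside 6.19 percent of all genes. The cathepsin CTSB read 12.36 and 12.32 in controls and 12.22 and 12.27 with miR-490. CTSS read 7.63 and 7.75 against 7.55 and 7.64 with overlapping groups, and CTSL 10.93 and 10.89 against 10.88 and 10.84.

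Of 36 inhibitors of other families, 12 were higher, 23 lower and 1 without a difference, with a median of -0.0325, and 3 had an unadjusted p under 0.05 (limma), 8.33 percent beside 6.19 percent of all genes. CSTA, cystatin A, which blocks cysteine cathepsins inside cells, read 6.19 and 6.25 in controls and 5.92 and 5.79 with miR-490, 0.776 of the control level (log2 fold change -0.365, 95% interval -0.56 to -0.17; limma adjusted p = 0.786). TIMP4, a metalloproteinase inhibitor, read 8.34 in both controls and 8.22 and 8.14 with miR-490, and WFDC2, of the whey acidic protein family, read 7.62 and 7.65 against 7.44 and 7.55. SPINT2, a Kunitz inhibitor, was dim, at 2.85 and 2.99 against 3.09 and 3.14. The procollagen folding and fibril genes, clients and partners of SERPINH1, had 4 higher and 12 lower means of 16 and a median of -0.035. COL5A1, a collagen chain, was the 1 gene of that list with an unadjusted p under 0.05 (limma), 6.25 percent beside 6.19 percent of all genes. It read 9.85 and 9.89 in controls against 9.69 and 9.74. The prolyl hydroxylase subunits P4HA1 and P4HA2 read 11.03 and 10.83 against 10.81 and 10.80, and 12.71 and 12.68 against 12.60 and 12.65.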

How the data were processed

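Per the submitters' processing notes, the authors ran RMA, and the deposited table holds its log2 levels, 1 per probe set. Which software and settings they used is not given in the sources used here. RMA makes array distributions alike and compresses low signals. Having so few arrays limits precision (the standard error of a difference had a median of 0.0725 over genes). Of 49293 probe sets, 44988 have 1 gene symbol, 1832 several and 2473 none in the platform annotation, and 44961 matched the RefSeq gene table by Entrez ID. Equal means were settled by probe set ID. limma 3.58.1 in R 4.3.3 (lmFit, eBayes, no block) compared the groups over all 18132 genes by two-sided tests. Calls were made at a Benjamini-Hochberg adjusted p of 0.05. The fit was tested on simulated data. Members and lists were chosen with earlier results of these data known. Values in every array are given for members above the array median or with an unadjusted p under 0.05, and for the 3 genes with the smallest p above the array median in each list; others singled out were chosen after their values were seen. Serpins and SPINKs without a single-symbol probe set were not analysed here. Alternatives changed normalisation, centring, the variance prior, moderation, the filter on dim genes, the probe set rule, the samples and the replicate block.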

Additional observations from a re-analysis of the deposited data

How the results depend on the processing

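No serpin or SPINK passed the adjusted threshold in the reported fit or in any of the 13 other settings; the smallest adjusted p of a named member was 0.6. The count of serpins at an unadjusted p under 0.05, 2 as reported, was 4 with an intensity trend, 1 among genes above the median level only, 4 over all probe sets, and 1 to 3 with 1 array left out. The SPINK count, 3 as reported, was 2 with array median centring, an intensity trend, a robust prior, the mean of probe sets, all probe sets and the block, each time without SPINK7, and 2 in the ordinary test without SPINK2. It was 3 after quantile normalisation, 1 among genes above the median level and 1 to 3 with 1 array left out. The median serpin log2 fold change was -0.095 among genes above the median level (7 serpins), -0.02 over all probe sets, and -0.02 to 0.05 with 1 array left out; that of the SPINKs was 0.47 in the first (SPINK1 alone) and 0.025 to 0.125 with 1 array left out. The smaller number of genes and the medians in the filtered fit follow from its construction, since it leaves out genes and keeps each log2 fold change. Its cut is the median of the gene means, 5.84, not the array median, so SERPIND1 at 5.63 was left out. The cause of the other shifts was not tested. A lone array was assumed to vary like the other group. Of 13 named members, 9 kept their sign in every setting that gave them a value. SERPINB8 was at 0.0088 with the mean of its probe sets, and with 1 array left out SERPINB8 ranged from -0.12 to 0.01, SERPINB1 from -0.115 to 0.105, SERPIND1 from -0.09 to 0.33 and SERPINH1 from -0.005 to 0.025, without a call. With the replicate number as a block, 2 serpins and 2 SPINKs had an unadjusted p under 0.05, SPINK7 no longer among them, and 0 members passed; same-numbered arrays deviated with a correlation of -0.0264 across genes, and the labels do not say that they were prepared together. Low signal limits the 31 dim members.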

Other observations

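Probe sets that name 2 genes were read as values only. All 5 that name a member are shared by SERPINB3 and SERPINB4, and their log2 fold changes ran from -0.125 to 0.075. The brightest read 5.42 and 5.28 in controls and 5.15 and 5.30 with miR-490, so the groups overlapped, and the other 4 had means of 2.06 to 2.62. The pseudogenes SERPINA13P and SERPINB9P1 read 2.69 to 2.91 and 3.05 to 3.46, and their groups overlapped too.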
